A study of Mus musculus with 19 samples.

Results

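Transcription in the fat of diabetic NOD mice given AAT was set against that in the fat of diabetic NOD mice given no AAT, using the 4 arrays whose titles name these groups, out of 19 arrays in the series. The AAT group (2 arrays) is fat of female NOD (NOD/LtJx) mice treated with alpha1 antitrypsin after new onset of diabetes. The DIA group (2 arrays) is fat of female NOD mice with new onset diabetes, and the labels name no agent for it. NOD mice are an inbred strain that develops autoimmune diabetes, and every group carries that background. A further 5 fat arrays, from diabetic mice treated with Power Mix (PM, 3 arrays; IL2.Ig, a mutant antagonist-type IL15.Ig and rapamycin) and from normoglycemic mice (NOR, 2 arrays), share the estimate of the spread and are given beside the results, and 10 arrays of pancreatic lymph nodes (PLN) serve for 1 comparison. The labels give neither the age of the mice, the fat depot, the AAT dose nor the time between treatment and sampling. The study's methods mention insulin therapy adjusted to each diabetic mouse. They name epididymal fat, a depot of males, as a source of RNA, taken after a fast and shortly after an injection of insulin or saline, but do not tie these steps to the arrays. Nor do the labels state if each array is a separate mouse, so the tests measure only the spread between these arrays, which may be technical.

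AAT is a circulating serine protease inhibitor, a serpin, that blocks neutrophil elastase and related proteases and dampens inflammation. White fat takes up glucose under insulin and turns it into fatty acids and triglyceride. Insulin drives this through the transcription factor SREBP-1c, and glucose through ChREBP. When insulin is low, fat switches to releasing fatty acids, under the influence of glucocorticoids and FoxO factors. The tissue also holds vessels, macrophages, fibroblasts and, depending on the depot and the dissection, pieces of neighbouring organs.

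Each array gives a linear signal for 45037 probe sets, and 18193 genes were followed through 1 probe set each, the one with the highest mean over the 9 fat arrays. Signals are compared between arrays for the same gene only. All arrays share the same trimmed mean of 500. Log2 signals of the 2 AAT arrays correlated at 0.828 and those of the 2 DIA arrays at 0.866 (Pearson), yet AAT array 1 was closest to DIA array 2 (0.887) and AAT array 2 to NOR array 2 (0.841). The 3′ to 5′ signal ratio of beta-actin, a measure of RNA integrity that is high in shortened RNA, was 9.08 and 5.87 in the AAT arrays, against 15.2 and 15.5 in the DIA arrays, while it lay between 3.35 and 6.32 in the other 5 fat arrays. The Gapdh ratio was 2.31 and 0.790 in AAT, against 2.46 and 4.63 in DIA. The actin ratios of the groups do not overlap, so RNA integrity moves with every difference between AAT and DIA below. In a fit with this ratio as a covariate, 41 of the 96 named genes that rose or fell still passed in the same direction, 47 no longer passed, and 8 turned in sign. The median turned in sign in 19 of the 44 gene lists. The labelled tissue could be checked against adipocyte genes. Adipoq (adiponectin) had signals of 31858 and 15690 in AAT fat, against 20191 and 48984 in DIA fat, and of 16 measured adipocyte identity genes 0 rose and 1 fell (Retn, the adipokine resistin).

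No transcript reached an adjusted p under 0.05 between AAT and DIA fat (limma, Benjamini-Hochberg). The smallest adjusted p was 0.476, and 2137 of 45037 probe sets had an unadjusted p under 0.05, which is 4.74% of those tested and close to the 5% that chance gives. A fit of only the 4 arrays gave 2 calls. With the thresholds that the study used (more than 2-fold, and p no higher than 0.05 before adjustment), 913 transcripts were higher in AAT fat (2.03%) and 820 were lower (1.82%). In the text, rose and fell refer to these thresholds. The higher ones made up 52.7% of these calls, against 63.4% after median centring, and leaving out single arrays moved the share between 24.7% (without AAT array 2) and 69.3% (without DIA array 1). Of the 18193 genes, 2.1% rose and 1.62% fell, and these shares are the background for the counts of gene lists. The median change of all genes was 0.00 on the log2 scale. Over genes, log2 changes had a median standard error (SE) of 0.62, which the number of arrays limits. The plot of gene lists shows where members depart from the rest.

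**Figure D1:**
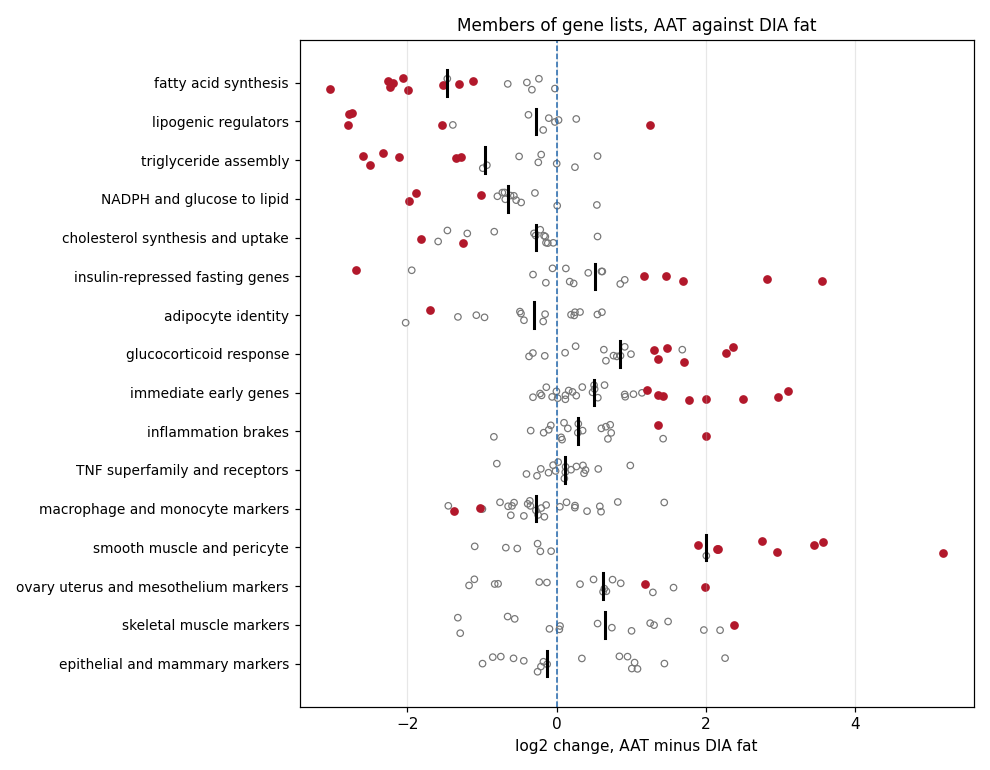
Log2 change between AAT and DIA fat (x axis) for the measured members of 16 gene lists (rows). Each circle is a gene, filled red where it rose or fell past the thresholds, the black bar is the median of the list and the dashed line the median of all genes. All 15 fatty acid synthesis genes lie left of the dashed line, and 9 of 15 smooth muscle and pericyte genes lie far to its right.

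Genes that make fatty acids were lower in AAT fat than in DIA fat. Of 15 measured members of the pathway, 15 lay below the median of all genes, 9 fell and 0 rose, with a median change of −1.47. The AAT arrays of 9 members lay below both DIA arrays, a layout that 15.9% of all genes have, against 16.4% with both AAT arrays above. Acly, ATP citrate lyase, which splits citrate into the acetyl-CoA used for synthesis, had signals of 4222 and 3242 in AAT fat, against 13867 and 17252 in DIA fat. Acss2, which makes acetyl-CoA from acetate, had 1155 and 862 in AAT, against 3958 and 5744 in DIA. Both pairs were far apart, and the NOR arrays (4414 and 3152 for Acly, 1122 and 880 for Acss2) lay at the level of the AAT arrays. The log2 changes were −2.06 (SE 0.53) for Acly and −2.26 (SE 0.52) for Acss2. Acly has 6 probe sets, which range from −2.51 to 0.82, and only this one of them passed.

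The next steps of the pathway followed. Acaca, acetyl-CoA carboxylase, which commits acetyl-CoA to fatty acids, had 5525 and 6682 in AAT fat, against 22561 and 25996 in DIA fat (−1.99, SE 0.73). Fasn, fatty acid synthase, had 4596 and 5691 in AAT, against 30725 and 56987 in DIA, an 8.18-fold difference (−3.03, SE 1.24). Its spread was wide in the other groups, at 36460, 1472 and 1824 in PM and at 31130 and 6093 in NOR, so that 1 PM and 1 NOR array reached the DIA level. Elovl6, which elongates palmitate, showed the same layout with 480 and 744 in AAT fat, against 2850 and 2598 in DIA fat. Me1 (malic enzyme, which yields NADPH), Scd2, Slc25a1 (the mitochondrial citrate carrier) and Acacb fell as well, with log2 changes between −2.23 and −1.13. The highest of the 3 Scd2 probe sets has 0.33. The AAT and DIA arrays of Acacb overlap, since AAT array 1 had 3288 and DIA array 2 had 2999. Scd1, the main stearoyl-CoA desaturase and the member with the highest signal, had 58903 and 63021 in AAT, against 62412 and 103400 in DIA (−0.40, SE 0.82). Thrsp, a lipogenic protein of the cytosol, had 8951 and 19319 in AAT, against 28426 and 46409 in DIA, and did not pass (−1.47, SE 0.86). The count of 9 became 3 without AAT array 1 or DIA array 2 and 6 without AAT array 2 or DIA array 1, was 2 with a variance prior that has no trend, and was 4 after median centring. With the actin ratio as a covariate 2 members fell and 1 rose, at a median of −1.18, and 0 of the 9 passed. Acly was then at −0.96 and Fasn at −1.78.

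Among 12 measured regulators of lipid synthesis 4 fell and 1 rose. Mlxipl, the gene of ChREBP, had 1620 and 389 in AAT fat, against 5438 and 5628 in DIA fat (−2.80, SE 0.58). Srebf1, the gene of SREBP-1, had 2240 and 1520 in AAT, against 5445 and 5290 in DIA (−1.54, SE 0.49). Pnpla3, a lipid droplet protein under the control of both factors, had 469 and 335 in AAT, against 1383 and 5077 in DIA (−2.74, SE 0.56). These 3 genes did not overlap between groups. The pair of Insig genes, whose proteins hold SREBP in the endoplasmic reticulum, split in direction. Insig1, itself an SREBP target, had 1144 and 800 in AAT fat, against 5390 and 8102 in DIA fat (−2.79, SE 0.62). Insig2, whose liver transcript is repressed by insulin, had 1524 and 1919 in AAT, against 563 and 923 in DIA (1.25, SE 0.35). In DIA fat the signal of Insig1 was high and that of Insig2 low relative to the 7 other fat arrays, which ranged from 716 to 3297 for Insig1 and from 1208 to 1919 for Insig2. With the actin ratio as a covariate, Pnpla3 passed and Mlxipl, Srebf1, Insig1 and Insig2 did not.

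**Figure D2:**
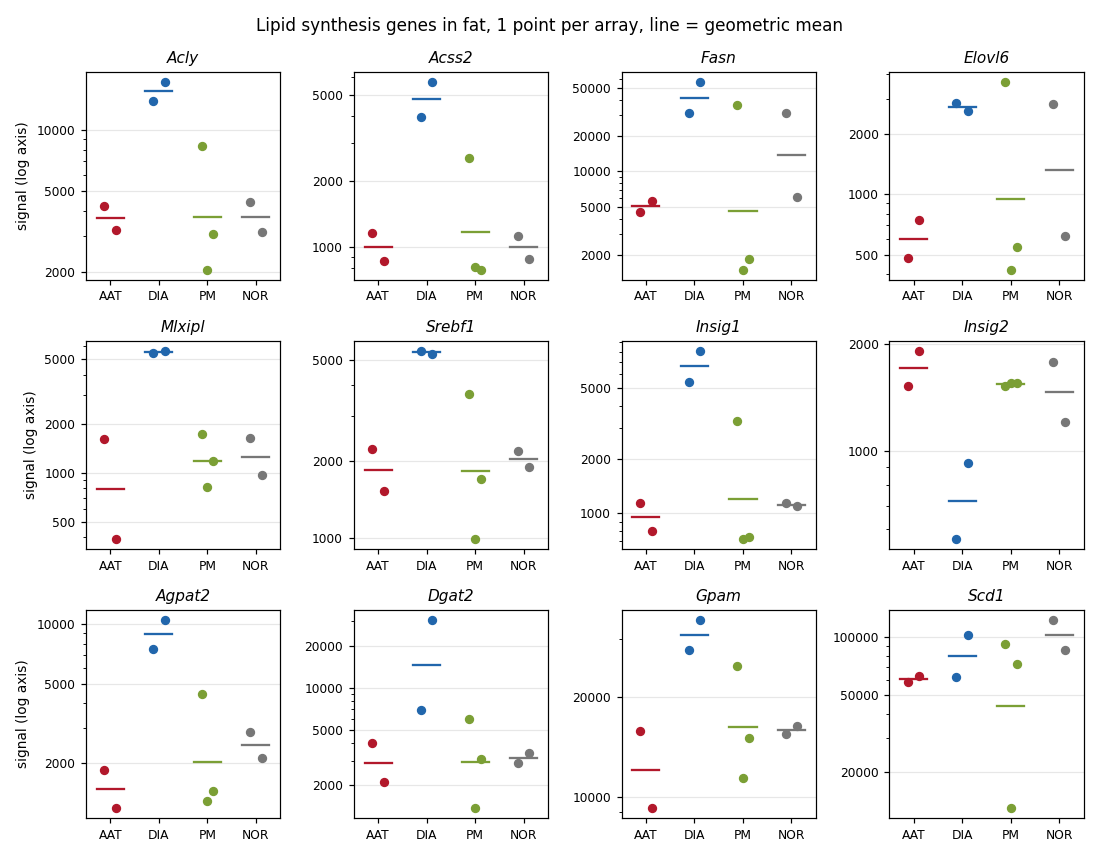
Signal (y axis, log scale) of 12 lipid synthesis genes in fat of AAT, DIA, PM and NOR mice (x axis), with 1 point per array and a line at the geometric mean. In 10 of the 12 panels the 2 AAT arrays lie below both DIA arrays, in that of Insig2 they lie above them, and in that of Scd1 the groups overlap.

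Assembly of triglyceride went the same way, with 6 of 14 measured genes falling, 0 rising and a median of −0.96. Agpat2, which adds the second acyl chain to the glycerol backbone, had 1841 and 1183 in AAT fat, against 7501 and 10563 in DIA fat (−2.59, SE 0.53). Gpam, which adds the first, had 15795 and 9258 in AAT, against 27805 and 34354 in DIA (−1.35, SE 0.44). The other of the 2 Gpam probe sets has 0.38. Dgat2, which completes the molecule, had 3999 and 2095 in AAT, against 6906 and 30800 in DIA (−2.33, SE 0.72), with DIA array 2 far above DIA array 1. Dgat1, Mogat2 and Bscl2 (seipin, a droplet assembly protein) fell by 2.11, 2.50 and 1.29 on the log2 scale. Agpat3, a relative of Agpat2, had 1022 and 755 in AAT, against 1592 and 1911 in DIA, just short of the fold threshold (−0.99, SE 0.33). Cidec, a droplet protein and the member with the highest signal, had 22905 and 28600 in AAT, against 17103 and 27253 in DIA (0.25, SE 0.42). The count of 6 was 1 without AAT array 2 or DIA array 2, 3 after median centring, and 1 with the actin ratio as a covariate, where 1 gene rose, the median was −0.28 and Dgat1 turned to 0.41.

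Of 14 genes that supply NADPH and glycerol phosphate 3 fell. Pgd, an enzyme of the pentose phosphate pathway, had 3801 and 1958 in AAT, against 7692 and 15102 in DIA, and Gpd1, which makes glycerol phosphate, had 1379 and 2085 in AAT, against 4928 and 7952 in DIA. Hexokinase 2 (Hk2) fell by 1.02. Of 15 cholesterol synthesis and uptake genes 2 fell, Fdft1 (squalene synthase, −1.81, SE 0.48) and Sc5d (−1.25, SE 0.53), while Hmgcs1, the synthase that makes HMG-CoA, had 2773 and 4097 in AAT, against 3401 and 3556 in DIA (−0.05, SE 0.30). The highest of the 4 Fdft1 probe sets has 0.66, and the highest of the 3 Sc5d probe sets 0.27. Hcar1, the lactate receptor that restrains lipolysis, was the 1 of 13 lipolysis genes that fell, with 188 and 138 in AAT fat, against 392 and 560 in DIA fat.

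The bases before the start sites of some of these genes are shown because their promoters hold short motifs that factors named above, or related ones, are known to bind. They come from RefSeq (GRCm38.p6), whose table holds 11 of the 15 listed fatty acid synthesis genes, 11 lipogenic regulators, 24 immediate early genes and 11 smooth muscle genes, and the 250 bases before each start were searched on both strands. The E-box CACGTG, which factors of the basic helix-loop-helix family bind, was in 3 of the 11 lipogenic regulators (27.3%) and in 2 of the 11 fatty acid synthesis genes (18.2%), against 6.86% of the 27025 genes in the table. It was no less frequent in other lists, in 5 of 11 lipolysis genes (45.5%), 5 of 15 insulin-repressed fasting genes (33.3%) and 5 of 16 glucocorticoid targets (31.2%). The median log2 changes of these lists were −0.59, 0.51 and 0.86. The sterol element TCACNCCAC was in 0 of 11 fatty acid synthesis genes, 1 of 11 lipogenic regulators and 1.22% of all genes. The box CCAAT was in 11 of 11 cholesterol genes and in 37.5% of all genes. Capitals mark the E-box in the lines of Insig1 and Mlxipl, and in that of Sc5d they mark ATTGG, which is CCAAT on the other strand.
Insig1, chr5:28071281-28071346, plus strand: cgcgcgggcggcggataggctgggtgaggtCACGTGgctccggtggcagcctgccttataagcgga
Mlxipl, chr5:135089762-135089827, plus strand: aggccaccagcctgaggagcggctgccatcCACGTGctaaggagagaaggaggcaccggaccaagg
Sc5d, chr9:42264301-42264344, minus strand: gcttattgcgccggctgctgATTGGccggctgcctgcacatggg

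Genes that insulin holds down in the fed state were in part higher in AAT fat. Of 18 measured members of this list 5 rose and 1 fell. Pck1, phosphoenolpyruvate carboxykinase, which makes glycerol phosphate in fat during fasting, had 19920 and 27500 in AAT fat, against 5102 and 14139 in DIA fat (1.46, SE 0.52). Txnip, an inhibitor of glucose uptake, had 20636 and 18988 in AAT, against 10705 and 7235 in DIA (1.17, SE 0.37). Fbxo32, a ubiquitin ligase component known as a FoxO target in muscle, had 1785 and 3349 in AAT, against 512 and 235 in DIA, a difference of 7.05-fold (2.82, SE 0.45), and both AAT arrays lay above the 940 of the highest other fat array. Trim63, another muscle ubiquitin ligase, passed at signals of 132 and 59.1 in AAT, against 11.5 and 4.95 in DIA, all below the median signal of their arrays, so no fold is given. Gadd45a rose with 296 and 1225 in AAT, against 206 and 167 in DIA. Ppargc1b, a coactivator of mitochondrial genes, fell, with 927 and 111 in AAT, against 3188 and 1342 in DIA. Of 18 genes of insulin signaling and glucose uptake 0 rose and 0 fell, and 0 of 23 oxidative phosphorylation genes did.

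Glucocorticoid targets were higher in AAT fat. Of 19 measured targets 6 rose and 0 fell, with a median change of 0.86. Pdk4, which blocks the entry of pyruvate into the citric acid cycle, had 10568 and 7964 in AAT fat, against 1828 and 1732 in DIA fat, 5.16-fold higher (2.37, SE 0.40). Ddit4, an inhibitor of mTORC1, had 9347 and 5523 in AAT, against 1663 and 1337 in DIA (2.27, SE 0.42), and the NOR arrays, at 2128 and 1445, lay near DIA. Cebpd, a transcription factor of early adipocyte differentiation, had 2716 and 2922 in AAT, against 804 and 934 in DIA (1.70, SE 0.31). Tsc22d3, also called Gilz, had 10405 and 10493 in AAT, against 1979 and 7092 in DIA (1.48, SE 0.51). Errfi1 and Dusp1 rose by 1.31 and 1.36. Fkbp5 had 4112 and 3185 in AAT, against 1320 and 3029 in DIA, and did not pass (0.86, SE 0.39). Of its 3 probe sets 1 rose, and they range from −0.19 to 2.13. Klf9 had 26283 and 25722 in AAT, against 16034 and 14661 in DIA, and did not pass (0.76, SE 0.36). Of its 7 probe sets 3 rose, and they range from 0.19 to 3.30. The metallothionein Mt1 had 22918 and 19041 in AAT, against 5556 and 25663 in DIA. The count was 4 without DIA array 1 and 10 without DIA array 2, and 3 with a variance prior that has no trend.

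Early response genes, which are switched on within minutes by many stimuli and also by handling of tissue, were higher in AAT fat in part. Of 30 measured, 8 rose and 0 fell, with a median of 0.51. Zfp36, whose protein destabilizes the mRNAs of Tnf and other cytokines, had 3953 and 3590 in AAT fat, against 837 and 1066 in DIA fat (2.00, SE 0.32). Fos had 4021 and 2618 in AAT, against 190 and 751 in DIA (3.10, SE 0.63). Egr1 had 11184 and 5425 in AAT, against 640 and 1541 in DIA (2.97, SE 0.56). In each of these 3 genes the DIA arrays were the lowest of the 9 fat arrays. The small Maf factor Maff had 772 and 546 in AAT, against 92.5 and 142 in DIA (2.50, SE 0.66). Ier2, Myc, Junb and Dusp1, a phosphatase of MAP kinases, rose by 1.78, 1.43, 1.21 and 1.36. Not all members went along, and Rhob, 1 of the 2 with the highest signal, had 8480 and 7927 in AAT, against 4465 and 6181 in DIA (0.64, SE 0.46). Outside the list, Mycl, a relative of Myc, had 657 and 1585 in AAT fat, against 102 and 53.2 in DIA fat (3.79, SE 0.53), the smallest unadjusted p of the genes named here, though the other 2 of its 3 probe sets did not pass and the lowest has −0.12.

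**Figure D3:**
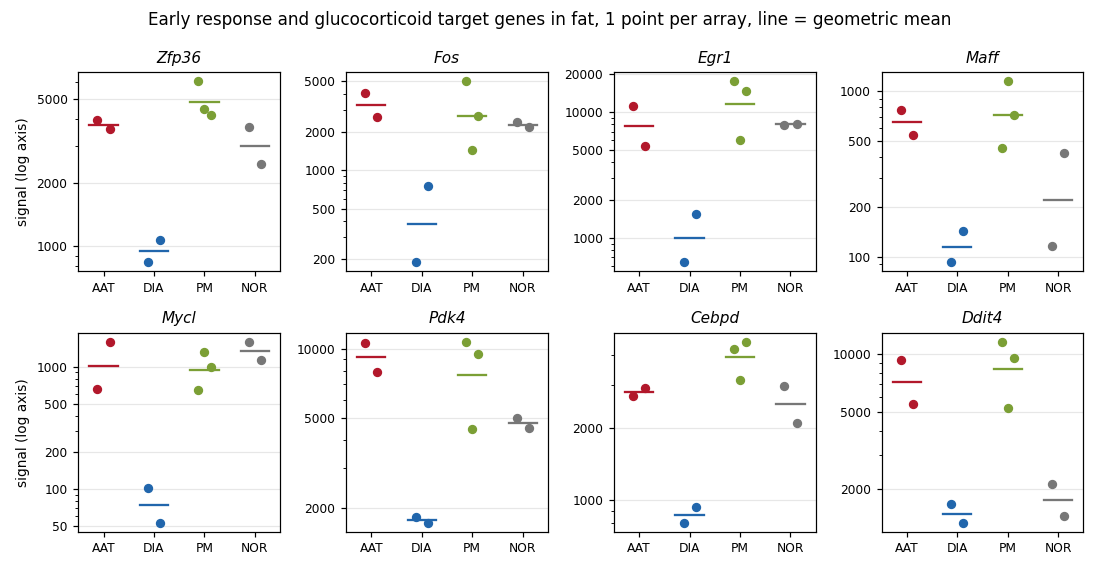
Signal (y axis, log scale) of 8 early response and glucocorticoid target genes in fat of AAT, DIA, PM and NOR mice (x axis), with 1 point per array and a line at the geometric mean. In all 8 panels both AAT arrays lie above both DIA arrays, and for Ddit4 the NOR arrays lie at 2128 and 1445, near DIA.

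Promoters of 3 early response genes that rose are shown for the motifs of 2 factors that switch such genes on, SRF and CREB. The CArG box of SRF was in 2 of 24 immediate early genes (8.33%), against 1.62% of all genes. It was in 0 of 11 smooth muscle and pericyte genes, but in 2 of 12 B cell and plasma cell markers (16.7%). Of 13 skeletal muscle markers 2 held it (15.4%). The CREB site TGACGTCA was in 3 of 24 immediate early genes (12.5%), against 1.77% of all genes. Its share was similar in other lists, with 2 of 16 glucocorticoid targets (12.5%) and 3 of 26 RNA splicing genes (11.5%). Capitals mark the CArG box in the line of Zfp36 and TGACGTCA in those of Maff and Dusp1.
Zfp36, chr7:28379247-28379316, minus strand: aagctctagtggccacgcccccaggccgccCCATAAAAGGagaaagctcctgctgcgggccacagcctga
Maff, chr15:79347461-79347519, plus strand: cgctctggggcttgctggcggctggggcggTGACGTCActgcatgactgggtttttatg
Dusp1, chr17:26508578-26508645, minus strand: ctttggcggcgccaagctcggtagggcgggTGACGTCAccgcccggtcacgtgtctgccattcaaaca

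The largest group of high values in AAT fat belonged to smooth muscle. Of 15 measured smooth muscle and pericyte genes 8 rose and 0 fell, the median was 2.01, and 9 had both AAT arrays above all 7 other fat arrays, a layout that 2.86% of all genes have. All 8 encode parts or regulators of the contractile apparatus and cytoskeleton. Acta2, smooth muscle actin, had 25799 and 36470 in AAT fat, against 8066 and 5911 in DIA fat (2.15, SE 0.60). Actg2, the actin of visceral smooth muscle, had 2668 and 3270 in AAT, against 456 and 161 in DIA (3.45, SE 0.70). Myh11, smooth muscle myosin heavy chain, had 6346 and 11590 in AAT, against 849 and 617 in DIA, 11.9-fold higher (3.57, SE 0.90). Its PM arrays had 472, 103 and 379, and its NOR arrays 346 and 3045, so NOR array 2 was the next highest after the AAT arrays.

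The remaining contractile genes had the same layout. Tagln (transgelin) had 14675 and 24542 in AAT fat, against 3312 and 1804 in DIA fat, and Cnn1 (calponin) had 1244 and 1912 in AAT, against 157 and 11.6 in DIA. Des (desmin), an intermediate filament of muscle, had 2727 and 4151 in AAT, against 844 and 971 in DIA (1.89, SE 0.36). Mylk, the myosin light chain kinase, and Smtn (smoothelin) rose by 2.17 and 2.75. Genes of the same tissue outside the list were among the largest changes of the whole comparison: Myl9, a myosin light chain, had 6912 and 10509 in AAT, against 1196 and 956 in DIA (2.99, SE 0.53), and Synpo2, an actin-bundling protein of muscle, had 2958 and 4575 in AAT, against 880 and 238 in DIA (3.01, SE 0.72). Pcp4, a calmodulin-binding protein, had 2541 and 7290 in AAT, against 634 and 83.9 in DIA, and rose by 4.22 (SE 1.00). The Wnt amplifier Rspo3 had 1907 and 3610 in AAT, against 684 and 85.0 in DIA, and Sh3bgr had 1253 and 2277 in AAT, against 412 and 72.0 in DIA. Lmod1 (leiomodin), with 1060 and 952 in AAT, against 273 and 229 in DIA, also lay above all other fat arrays but did not pass (2.01, SE 1.07).

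Pericytes, the mural cells of capillaries, are marked by other members of the list, and these did not pass. Rgs5 had 12676 and 4044 in AAT fat, against 7613 and 7459 in DIA fat (−0.07, SE 0.85). Pdgfrb had 3956 and 1246 in AAT, against 7490 and 3016 in DIA (−1.10, SE 1.18), Notch3 had 2105 and 1330 in AAT, against 2398 and 2426 in DIA, and Cspg4 had 415 and 426 in AAT, against 573 and 792 in DIA. The count of 8 for the list was 7 to 9 in all other settings except the fit with the actin ratio, where it was 11, Rgs5 turned to 2.99 and Pdgfrb to 3.40. The summed signal of the 15 genes was 87043 and 113240 in the AAT arrays, against 36464 and 28357 in the DIA arrays, and lay between 8770 and 48259 in the PM and NOR arrays.

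**Figure D4:**
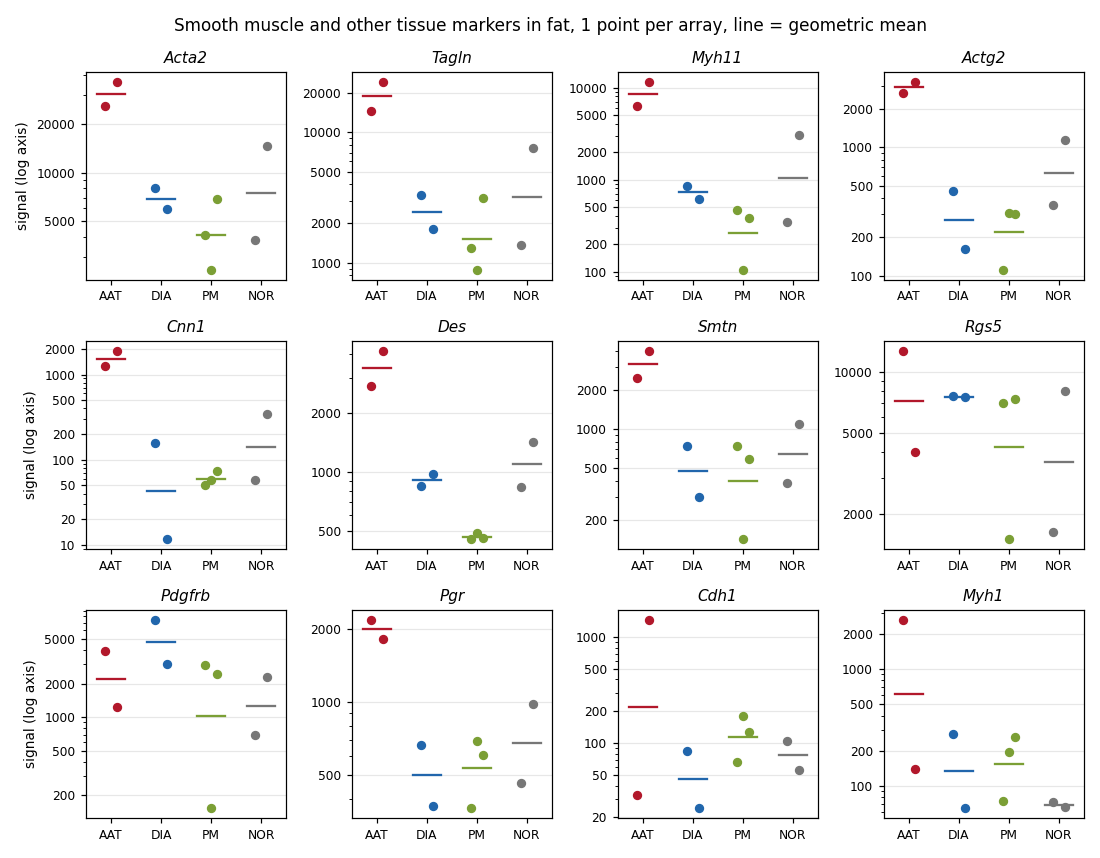
Signal (y axis, log scale) of smooth muscle genes (Acta2 to Smtn), pericyte genes (Rgs5, Pdgfrb) and markers of other tissues (Pgr, Cdh1, Myh1) in fat of AAT, DIA, PM and NOR mice (x axis), with 1 point per array and a line at the geometric mean. Both AAT arrays lie above all other arrays for the 7 smooth muscle genes and Pgr, and only AAT array 2 is high for Cdh1 and only AAT array 1 for Myh1.

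Some markers of other tissues were high in AAT fat too, in both arrays or in 1, while others were not. Of the ovary, uterus and mesothelium markers 6 of 17 lay below the median of all genes. So did 9 of 17 epithelial and mammary markers and 5 of 16 skeletal muscle markers. The medians of these lists were 0.62, −0.13 and 0.64. Of 17 markers of ovary, uterus and mesothelium 2 rose, Pgr (the progesterone receptor), with 2180 and 1822 in AAT fat, against 666 and 376 in DIA fat (1.99, SE 0.48), and Wt1, a transcription factor of mesothelium and the urogenital tract, with 1115 and 2193 in AAT, against 808 and 585 in DIA (1.19, SE 0.43). The lowest of the 3 Pgr probe sets has −1.77. Esr1, the estrogen receptor, had 3141 and 6052 in AAT, against 3471 and 1938 in DIA, and Upk3b, a mesothelial and urothelial protein, had 2380 and 2142 in AAT, against 1651 and 1273 in DIA. The summed signal of the 17 markers was 12841 and 22316 in AAT, against 11323 and 8372 in DIA. Among the AAT and DIA arrays, several epithelial genes were high in AAT array 2 alone. Cdh1 (E-cadherin) had 32.5 and 1466 in AAT, against 85.4 and 24.4 in DIA. The keratin Krt18 had 482 and 5150 in AAT, against 1140 and 511 in DIA, and Krt7 had 311 and 2912 in AAT, against 384 and 269 in DIA. Krt5 had 104 and 1742 in AAT, against 263 and 92.8 in DIA, and Krt19, Krt8 and the uroplakin Upk1b had 2501, 2237 and 3451 in AAT array 2 and at most 889 in the other 3 arrays. The 17 epithelial and mammary markers summed to 2478 and 15805 in AAT, against 4591 and 3205 in DIA, and 0 of them rose. Their sum was 6583 in PM array 2 and 6955 in NOR array 1, and at most 3959 in the remaining PM and NOR arrays. Of 16 skeletal muscle genes 1 rose, the calcium pump Atp2a1, with 346 and 269 in AAT, against 93.1 and 37.0 in DIA. Myh1, a fast myosin, was high in AAT array 1 alone, with 2659 and 140 in AAT, against 279 and 64.1 in DIA, and the sum of the 16 markers was 7778 and 2621 in AAT, against 2439 and 3545 in DIA. The part of these tissues in the other results was not tested. In such bulk samples fewer cells of a type and less RNA per cell cannot be told apart.

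Few of the listed genes of the immune system rose or fell, and smaller changes could have gone unseen. With an AAT or DIA array left out, the median ranged from −0.59 to 0.13 for T cell markers. For chemokines it ranged from −0.52 to 0.40. Tnf, the gene the study singled out, was near the low end of the signal range, with 20.9 and 40.2 in AAT fat, against 25.6 and 100.2 in DIA fat (−0.80, SE 1.11), and 0 of 18 measured TNF superfamily members, 0 of 14 NF-kB pathway genes and 0 of 20 cytokines and receptors rose or fell. With an SE of 1.11 only a large difference in Tnf would have passed. Of 27 macrophage and monocyte markers 2 fell, the lysosomal protein Laptm5, with 2596 and 1619 in AAT, against 5178 and 5500 in DIA (−1.38, SE 0.33), and the complement subunit C1qb, with 2641 and 1986 in AAT, against 2896 and 7560 in DIA (−1.03, SE 0.44). The list sums to 35380 and 24991 in AAT, against 32940 and 53847 in DIA, so only DIA array 2 stood apart, and without that array the median change of the list turned to 0.28. Of 17 B cell and plasma cell markers 1 rose and 0 fell, with a median of 0.14. Jchain, the joining chain of IgA and IgM, had 9846 and 5310 in AAT, against 350 and 2557 in DIA (2.93, SE 0.77). Outside the list, the light chain segment Igkv8-30, whose probe set may share sequence with other segments, had 23744 and 7487 in AAT, against 154 and 7322 in DIA (3.65, SE 1.31), so that DIA array 1 alone stood apart from AAT array 2.

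Isg20, an interferon-induced exonuclease, was the 1 of 24 interferon-stimulated genes that rose, with 1350 and 1174 in AAT fat, against 442 and 502 in DIA fat (1.42, SE 0.32). Il7r, the interleukin 7 receptor, was the 1 of 15 T cell markers that rose, with 500 and 753 in AAT, against 154 and 167 in DIA. The other of the 2 Il7r probe sets has −1.39. Of 14 neutrophil markers and AAT-sensitive proteases 0 passed. Of 13 serpins Serpinh1, a collagen chaperone, fell by 1.21. The mouse genes of AAT itself were measured for Serpina1b, with 1328 and 456 in AAT, against 628 and 1214 in DIA, and Serpina1c, with 100.4 and 740 in AAT, against 258 and 1160 in DIA, and neither passed. Of 12 erythroid and platelet genes 3 rose: the platelet chemokine Ppbp, with 666 and 573 in AAT, against 174 and 31.0 in DIA, Bpgm (1.67, SE 0.56) and Alas2, an enzyme of heme synthesis, with 6304 and 1141 in AAT, against 676 and 968 in DIA. The summed signal of the 12 was 13350 and 6356 in AAT, against 4721 and 5527 in DIA.

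Where AAT and PM were compared directly within fat, 0 of 45037 transcripts had an adjusted p under 0.05 (smallest 0.110, limma), 2500 had an unadjusted p under 0.05 (5.55%), and 823 were higher (1.83%) and 1375 lower (3.05%) in AAT past the same thresholds. The smallest adjusted p was that of Des, which was 2.85 higher on the log2 scale in AAT than in PM fat (SE 0.33), with both AAT arrays above all 3 PM arrays. Of the 15 smooth muscle and pericyte genes 9 were higher in AAT than PM past the thresholds, against 2.34% of all genes, and Myh11 differed by 5.02 (SE 0.82). Of 29 extracellular matrix and fibroblast genes 12 were higher in AAT than in PM. Measured against DIA fat, this list had a median change of −0.24 in AAT fat and of −1.20 in PM fat. Between AAT and PM the fatty acid synthesis genes had a median difference of −0.18 and the early response genes one of −0.08, with 1 gene higher and 0 lower in each list, against 2.34% and 2.4% of all genes. AAT minus PM was −0.02 (SE 0.49) for Acly, −0.33 (SE 0.56) for Insig1, 0.27 (SE 0.58) for Fos and −0.37 (SE 0.29) for Zfp36.

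The same contrast in PLN, which has its own DIA and AAT arrays, allowed a test of where the fat response differed. In 1 fit of all 19 arrays, 0 transcripts had an adjusted p under 0.05 for the difference of the AAT effect between fat and PLN (smallest 0.107, limma), and 3667 had an unadjusted p under 0.05 (8.14%). The genes at the smallest adjusted p included Acly, with a log2 change of −2.06 (SE 0.53) in fat, against 2.21 (SE 0.48) in PLN, Me1, with −1.52 (SE 0.52) in fat, against 3.93 (SE 0.85) in PLN, and Insig1, with −2.79 (SE 0.62) in fat, against 1.91 (SE 0.49) in PLN. The differences were −4.27 (SE 0.76) for Acly, −5.45 (SE 0.89) for Me1 and −4.70 (SE 0.82) for Insig1. Anp32a, which encodes a nuclear phosphoprotein, had 4817 and 4591 in AAT fat, against 414 and 491 in DIA fat (3.38, SE 0.57), and the value in PLN was −1.21 (SE 0.50). Of 15 fatty acid synthesis genes 8 had a lower AAT effect in fat than in PLN past the thresholds, against 4.31% of all genes. Other lists exceeded that share too, with 8 of 23 oxidative phosphorylation genes and 8 of 26 angiogenic ligand and TGF-beta genes, while 0 of 29 RNA splicing genes did so. The median change of all genes in PLN was −0.33, which shifts these differences. That of the 16 adipocyte identity genes was 0.97 in PLN, and the part of adipocyte signal in these differences was not tested. The actin ratio was 1.67, 1.23, 1.29 and 2.01 in the AAT arrays of PLN, against 0.881 and 1.10 in its DIA arrays, so that it was higher with AAT in PLN and lower with AAT in fat. The Gapdh ratio was 7.43, 20.63, 8.30 and 24.97 in the AAT arrays of PLN, against 10.78 and 10.02 in its DIA arrays. AAT arrays 2 and 4 of PLN thus lay far above both DIA arrays, and AAT arrays 1 and 3 below them. The median signals of AAT arrays 2 and 4 were 92.3 and 94.1, against 178 and 130 in AAT arrays 1 and 3. Those of the DIA arrays were 279 and 152. The part of these ratios and signals in the difference between the tissues was not tested.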

How the data were processed

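The 19 deposited Mouse 430 2.0 arrays (RNA amplified with WT-Ovation Pico) were grouped by tissue and treatment from their titles. The deposited values are intensity signals on a linear scale, made by the authors with MAS5, scaled per array (version not given in the sources used here). The methods of the paper name RMA and a rank product test, and neither was used here. Values under 1 were set to 1 and log2 was taken. After removal of 64 controls 45037 probe sets remained, of which 34945 are annotated to 1 gene, 932 to several and 9160 to none.

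Means per group were fitted to the 9 fat arrays with limma 3.58.1 in R 4.3.3 (lmFit, eBayes with trend), contrast AAT minus DIA, and p-values were adjusted by Benjamini and Hochberg over all probe sets. AAT against PM used the same fit, and fat against PLN an interaction over 19 arrays. The fit was tested on simulated data. The 44 gene lists (829 genes, 754 measured, older symbols matched through RefSeq synonyms) were described by counts and medians, with no set test. The members, lists and rule were chosen with earlier results of these data known.

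By rule the text names the 15 genes with the largest change each way (thresholds passed, groups apart, mean at or above the median), up to 4 members of a list with the smallest p and 2 with the highest mean, and Tnf and the Serpina1 genes. Of 125 genes named, 22 lie outside the rule and were chosen after their values were seen, namely Tagln, Smtn, Lmod1, Pdgfrb, Cspg4, Notch3, Upk1b, Krt7, Krt5, Scd2, Slc25a1, Elovl6, Acacb, Dgat1, Bscl2, Gadd45a, Lep, Errfi1, Fkbp5, Maff, Myc and Junb. Alternatives were a fit of 4 arrays, the replicate number as a block, low-signal filters (40th or 60th percentile), quantile or median scaling between arrays, a floor (20th percentile), an offset of 32 before log2, no trend, 1 probe set per gene, the actin ratio as a covariate, and each array left out.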

Additional observations from a re-analysis of the deposited data

How the results depend on the processing

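With the replicate numbers as a replicate block, 754 transcripts were higher, 627 lower and 0 called at an adjusted p. The correlation of the deviations of AAT array 1 and DIA array 1 was −0.067. With 2 arrays in each of these groups the deviations within a group mirror each other, so this value cannot show if the numbers pair samples. The adjusted p called 2 transcripts in the fit of only the 4 arrays, 25 with the actin ratio as a covariate, 0 in every other setting, and 0 to 1 with an array left out. Transcripts higher and lower numbered 570 and 418 after filtering at the 40th percentile, 437 and 282 at the 60th, 379 and 284 with 1 probe set per gene, and 2085 and 2446 with the actin ratio, where the median change of all transcripts was −0.36. With an array left out the higher ones ranged between 341, when AAT array 2 was dropped, and 1949, when AAT array 1 was, and the lower ones between 541 (without DIA array 1) and 1941 (without AAT array 1). The share of higher calls was 52.7%, and 63.4% after median centring, 24.7% without AAT array 2, 69.3% without DIA array 1 and 63.2% without DIA array 2. Of the 125 genes named, 96 passed, 29 of them in every alternative that kept the gene.

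With the actin ratio as a covariate 13 named genes turned in sign: Rgs5 to 2.99, Pdgfrb to 3.40, Krt7 to −2.28, Krt18 to −2.80, Krt8 to −1.91, Acacb to 0.55, Dgat1 to 0.41, Agt to 0.42, Retn to 0.60, Igfbp5 to 0.17, Tlcd3b to 0.24, Tenm4 to 0.043 and Gstm1 to −0.049. Leaving out 1 AAT or DIA array turned the sign of the median in 29 of 44 lists: 6 without AAT array 1, 15 without AAT array 2, 13 without DIA array 1 and 8 without DIA array 2. Among them were endothelial markers (−1.17 to 0.69), epithelial and mammary markers (−0.63 to 1.30), skeletal muscle markers (−0.11 to 1.69), adipocyte identity (−0.80 to 0.018), RNA splicing (−0.52 to 0.11) and neutrophil markers (−0.40 to 0.43). With the actin ratio 19 medians turned, and that of endothelial markers was 3.41. The other 15 lists, fatty acid synthesis, triglyceride assembly, lipogenic regulators, glucocorticoid targets, immediate early genes, fasting genes and smooth muscle among them, kept their sign in these fits. Lists whose median exceeded the spread and turned in sign were macrophage markers (0.28 without DIA array 2, range with an array left out −0.66 to 0.28), erythroid and platelet genes (−0.081 with a floor at the 20th percentile, −0.60 with the actin ratio, −0.13 to 0.18 with an array left out, lowest without DIA array 1), ovary, uterus and mesothelium markers (−0.034 with the actin ratio, −0.045 to 0.89 with an array left out, lowest without AAT array 2) and cell cycle genes (−0.27 with the actin ratio, −0.26 to 0.35 with an array left out, lowest without DIA array 1). The cause was not tested. The number of arrays limits the precision.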

Other observations

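Of 18 measured genes of amino acid stress and growth control, 2 fell (Psat1 and Phgdh) and 1 rose (Ddit4), with a median of 0.06. Psat1, which with Phgdh makes serine from a glycolytic intermediate, had 1441 and 1195 in AAT fat, against 4462 and 5624 in DIA fat (log2 change −1.93, SE 0.31), and Phgdh had 6504 and 2952 in AAT, against 9415 and 14102 in DIA (−1.39, SE 0.45). Psat1 had 4797 and 3417 in NOR and 2703, 2115 and 2197 in PM, so that the AAT arrays were the lowest of the 9. Outside this list, Slc7a10, a carrier of small neutral amino acids, had 2612 and 651 in AAT, against 5440 and 6720 in DIA, and Gpt, alanine aminotransferase, had 536 and 107 in AAT, against 989 and 2489 in DIA.

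Of 19 circadian clock genes 2 rose and 1 fell. The clock activator Npas2 had 320 and 417 in AAT fat, against 44.9 and 58.3 in DIA fat, its target and repressor Nr1d1 had 789 and 1001 in AAT, against 480 and 156 in DIA, and Per3 had 570 and 442 in AAT, against 1085 and 1922 in DIA. The other of the 2 Npas2 probe sets has −1.97. The sources used here give no time of day for the sampling. The adipokine resistin (Retn) had 22319 and 5450 in AAT, against 26824 and 47888 in DIA, angiotensinogen (Agt) had 1034 and 172 in AAT, against 2035 and 2150 in DIA, and leptin (Lep) had 2252 and 63.1 in AAT, against 18.7 and 9408 in DIA, a spread within each group larger than any difference between them. Of 29 matrix genes Lum (3770 and 3698 in AAT, against 991 and 2841 in DIA) and Mmp14 rose, and Col1a1 (658 and 347 in AAT, against 1005 and 1625 in DIA) fell. Of the binding proteins of insulin-like growth factors, Igfbp5 had 4021 and 2405 in AAT, against 9894 and 7701 in DIA, and Igfbp3 had 1523 and 1855 in AAT, against 967 and 641 in DIA. Net1, an exchange factor of RhoA, had 2123 and 7809 in AAT, against 973 and 270 in DIA, and Gcnt2, which branches glycans, had 8436 and 3816 in AAT, against 815 and 615 in DIA, with 1 of its 8 probe sets passing. Single members of other lists rose: Gstm1, a glutathione transferase, had 5533 and 27429 in AAT, against 3349 and 4618 in DIA, Pcna, the replication clamp, had 1489 and 1646 in AAT, against 829 and 736 in DIA, and Psmd7, a proteasome subunit, had 760 and 757 in AAT, against 457 and 219 in DIA. Tbx15, a transcription factor of brown fat, had signals of at most 13.0 in AAT, against 90.1 and 145 in DIA, all below the median signal of their arrays, and no fold is given. Among the lowest by fold were also Tlcd3b, with 535 and 33.8 in AAT, against 2455 and 1194 in DIA, Tenm4, with 1411 and 238 in AAT, against 1881 and 8960 in DIA, and Pmel, with 73.7 and 95.6 in AAT, against 568 and 261 in DIA.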
